A study of Mus musculus with 16 samples.

Results

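The genes described here make up the collagens and the extracellular matrix around them, and were picked by symbol. The 36 symbols name 6 fibrillar collagen chains, 7 basement membrane genes, 7 other collagen chains, 3 lysyl oxidases, 7 matrix glycoproteins, 3 elastic fibre genes and 3 small leucine-rich proteoglycans. Of these, 35 had a row among the 16094 genes of the deposited table, and Lum, the gene of lumican, was not analysed here. All 35 averaged at least 5 normalised reads over the 16 tumours and were tested. Their lowest group mean was 7.94 normalised reads, for Col12a1 in shMdk IgG2a tumours, so none was tested through a single group alone.

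RNA was read from 16 tumours that B16R2L cells, a line of mouse melanoma, had formed in mice. In shMdk tumours the cells carried 1 short hairpin RNA against Mdk, which encodes midkine, a secreted growth factor, and in shCtrl tumours they carried a non-target hairpin. From a tumour size of 100 mm3, the hosts were given anti-PD1 (clone RMP1-14, 10 mg/kg), which blocks an inhibitory receptor of T cells, or IgG2a as its control. Either was injected 2 times a week over 2 weeks. The 4 groups were shMdk tumours under anti-PD1, shMdk tumours under IgG2a, shCtrl tumours under anti-PD1 and shCtrl tumours under IgG2a, with 4 tumours each. The question, by the title of the series, is how tumours with Mdk knocked down respond to PD1 therapy. Since 1 hairpin stands for the knockdown, a difference between the lines and an effect of losing Mdk cannot be told apart. The strain, sex and age of the mice are not given in the sources used here. Tumours are numbered 1 to 4 within a group, and the same number in 2 groups links nothing.

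Fibrillar collagens leave the cell as procollagen, are trimmed by proteases and assemble into the fibres that carry tension in connective tissue, where lysyl oxidases join neighbouring chains by covalent crosslinks. Basement membranes are thin sheets of type IV collagen, laminin and nidogen under epithelia and around vessels. In solid tumours most fibrillar matrix is made by fibroblasts and pericytes, and tumour cells, endothelium and macrophages add to it. Glycoproteins such as fibronectin, tenascin C and periostin tie cells to these fibres through integrins.

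Values are normalised reads, that is, reads of the 3′ ends of transcripts divided by a size factor for each tumour, so they do not scale with transcript length. The tumours held 5686405 to 8886334 reads each. Mdk had 312, 289.9, 147 and 96.5 normalised reads in shMdk anti-PD1 tumours, against 925, 607, 1104 and 856 in shCtrl anti-PD1 tumours. Under IgG2a it had 150.2, 203, 323 and 121 in shMdk tumours, against 601, 727, 959 and 1161 in shCtrl tumours. Every shMdk tumour was below every shCtrl tumour, which is what the labels say of the lines. The labelled tissue was checked on melanocyte markers, of which 8 of 8 were in the table, with a summed level of 114062 to 153063 normalised reads in shMdk tumours, against 140632 to 192287 in shCtrl tumours. In 2 libraries, shMdk IgG2a tumour 1 and shCtrl anti-PD1 tumour 2, the rRNA-overlapping gene model Gm42418 took 3.17% and 4.47% of reads. In 5 libraries, shMdk anti-PD1 tumour 1, shMdk IgG2a tumours 3 and 4, and shCtrl IgG2a tumours 1 and 2, gene levels were higher with higher GC content of the 3′ end, by 0.0917 to 0.186 log2 units per 10% GC. Counts of members are given with and without these libraries where they move.

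Matrix genes spanned a wide range of levels. Sparc, whose product SPARC binds collagen, was the highest with a mean of 10440 normalised reads over the 16 tumours. Col1a1, one chain of type I collagen, followed at 1378 and Col4a1, one chain of type IV collagen, at 878. The lowest were Col12a1 at 16.9 and Thbs2 at 19.7. Between the highest and the lowest tumour, Sparc differed by 1.85 times, Col4a1 by 2.29 times, Col1a1 by 24.7 times and Col3a1 by 158 times.

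Under anti-PD1, 16 of the 35 matrix genes rose in shMdk tumours relative to shCtrl tumours and 0 fell. The other 19 did not pass, and all 35 log2 fold changes lay above 0. Each test used limma on log2(normalised reads + 1), and a gene passed with a Benjamini-Hochberg adjusted p under 0.05 over all 14672 genes tested. Fold changes are given ± the standard error of the fit. Among all those genes 4.93% were called higher and 0.995% lower in this comparison. The median log2 fold change was 1.74 over the matrix genes and -0.02 over all genes tested. In 13 of the 35 the lowest shMdk tumour exceeded the highest shCtrl tumour, against 8.23% of all genes tested. These are bulk tumours, so more or fewer cells of a type and more or less RNA per cell cannot be told apart. The genes that passed were 4 of 6 fibrillar collagen chains, 1 of 7 basement membrane genes, 4 of 7 other collagen chains, 2 of 3 lysyl oxidases, 4 of 7 glycoproteins, 1 of 3 elastic fibre genes and 0 of 2 proteoglycans.

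How many passed depended on single tumours. It fell to 5 genes when shMdk anti-PD1 tumour 1 was left out, and to 7 when tumour 4 of that group was left out. Without shCtrl anti-PD1 tumour 2 it was 9, and without tumour 4 of that group it was 10. Left out one at a time, the other 12 tumours gave 11 to 24. The 5 genes that passed whichever of the 8 anti-PD1 tumours was left out were Tgfbi, Lox, Fn1, Tnc and Col6a3. Of these, Col6a3 passed narrowly without shMdk anti-PD1 tumour 1 (limma, adjusted p = 0.04994) and without tumour 4 of that group (0.0443). 2 further fits were added after the data had been seen: without the 2 libraries high in Gm42418 the count was 10, and without the 5 libraries whose levels rose with GC content it was 7.

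**Figure D1:**
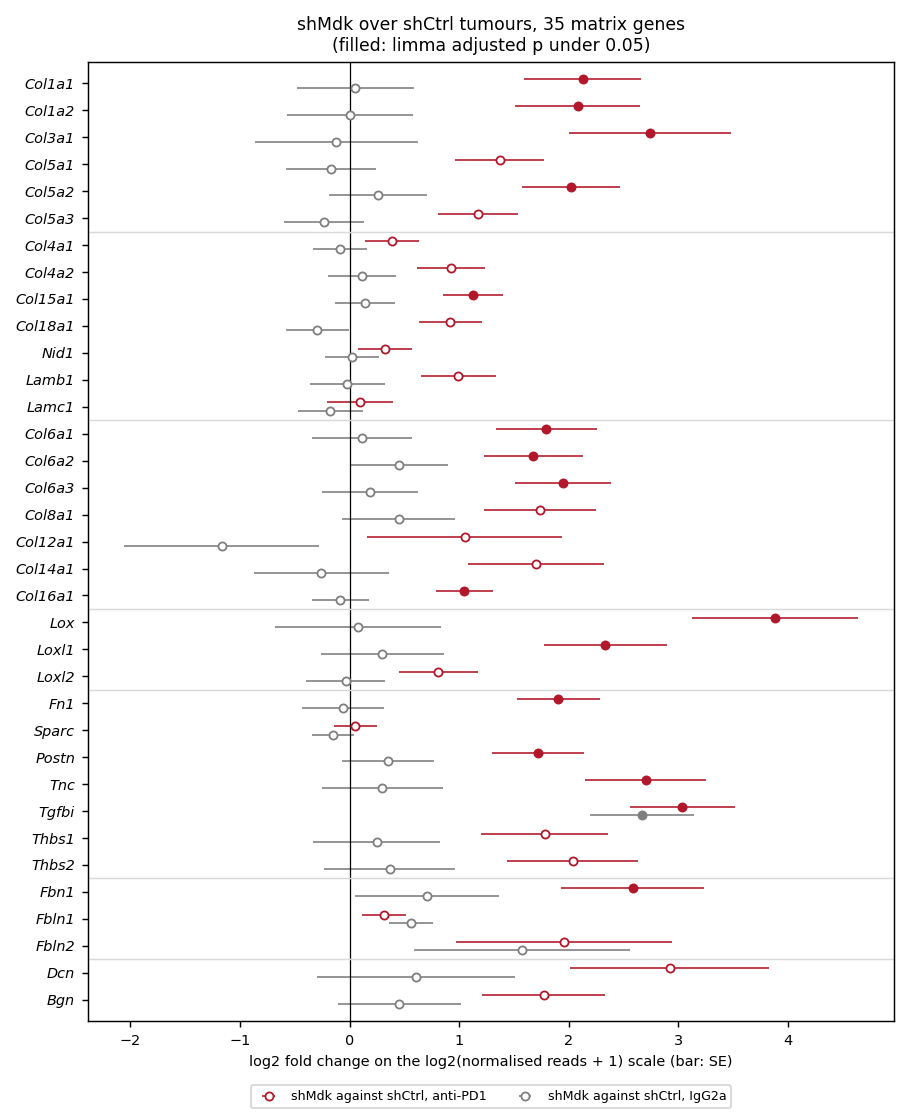
Log2 fold changes of shMdk over shCtrl tumours for the 35 matrix genes (horizontal axis, on the log2(normalised reads + 1) scale), grouped by role from fibrillar collagens at the top to proteoglycans at the bottom. Red points are the comparison under anti-PD1 and grey points the one under IgG2a, bars are standard errors, and filled points passed limma's adjusted p of 0.05: 16 red points are filled and 1 grey point, Tgfbi.

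The fibrillar collagens were led by type I and type III. Col1a1 had 6675, 1724, 786 and 2929 normalised reads in shMdk anti-PD1 tumours, against 517, 270.2, 1155 and 448 in shCtrl anti-PD1 tumours. Tumours 1, 2 and 4 of the shMdk group were above all 4 shCtrl tumours, and tumour 3 lay within them. The log2 fold change was 2.13 ± 0.53 (limma, adjusted p = 0.0236). Col3a1, the chain of type III collagen, had 3796, 674, 233 and 951 normalised reads in shMdk tumours and 187, 24, 474 and 126 in shCtrl tumours. Here too shMdk tumour 3 was below the highest shCtrl tumour, and shCtrl tumour 2 was the lowest of all 16. The log2 fold change was 2.74 ± 0.74 (limma, adjusted p = 0.0346). Col1a2, the partner chain of Col1a1, rose, with a log2 fold change of 2.08 ± 0.57 (limma, adjusted p = 0.0373). These 3 calls were lost without shMdk anti-PD1 tumour 1, with limma adjusted p of 0.0952 for Col1a1, 0.138 for Col3a1 and 0.142 for Col1a2. They were also lost without tumour 4 of that group or shCtrl anti-PD1 tumours 1, 2 or 4. With the anti-PD1 groups alone in the fit, all 3 were lost too. Those of Col1a2 and Col3a1 were lost without shMdk tumour 2 as well.

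Type V collagen sits inside type I fibres and limits their width. Its chain gene Col5a2 had 206, 83.2, 67 and 249 normalised reads in shMdk anti-PD1 tumours, against 37.7, 16.5, 63.2 and 24.3 in shCtrl anti-PD1 tumours. The groups did not overlap, with shMdk tumours 1 and 4 the highest, and the log2 fold change was 2.02 ± 0.45 (limma, adjusted p = 0.0109). Without shMdk anti-PD1 tumour 1 the adjusted p of Col5a2 was 0.0516. The other chains did not pass, with log2 fold changes of 1.37 ± 0.41 (limma, adjusted p = 0.0593) for Col5a1 and 1.17 ± 0.37 (limma, adjusted p = 0.0729) for Col5a3. Col5a2 lies 24614 bases from Col3a1 on chromosome 1, on the other strand (GRCm38, Col3a1 chr1:45311538-45349706, Col5a2 chr1:45374321-45503282).

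The basement membrane genes had a median log2 fold change of 0.92, against 2.05 over the fibrillar chains. In 4 of the 7 all shMdk tumours were above all shCtrl tumours, against 1 of the 6 fibrillar chains (8.23% of all genes tested). Among the 4 were Lamb1 (log2 fold change 0.99 ± 0.35, limma adjusted p = 0.112) and Col18a1 (log2 fold change 0.92 ± 0.29, limma adjusted p = 0.0736), which did not pass. Col4a1 had 1251, 692, 789 and 1102 normalised reads in shMdk anti-PD1 tumours, against 679, 886, 641 and 670.4 in shCtrl anti-PD1 tumours. The groups overlapped, and its log2 fold change was 0.39 ± 0.25 (limma, adjusted p = 0.467). Col4a2, the other chain of the common type IV trimer, starts beside Col4a1 and runs the other way: on GRCm38 the 2 genes overlap by their first 22 bases on chromosome 8 (Col4a1 chr8:11198423-11312826, Col4a2 chr8:11312805-11449287). Col4a2 had 1063, 437, 412 and 856 normalised reads in shMdk tumours and 324, 390.3, 296 and 331 in shCtrl tumours, without overlap, and missed the threshold (log2 fold change 0.93 ± 0.31, adjusted p = 0.0961).

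Lamc1, the laminin gamma 1 chain, had 182, 199.8, 291 and 312 normalised reads in shMdk anti-PD1 tumours, against 202, 263, 228 and 208 in shCtrl anti-PD1 tumours. The groups overlapped widely, and tumour 1 of the shMdk group was the lowest of the 8. Its log2 fold change was 0.10 ± 0.30 (limma, adjusted p = 0.920), the second smallest of the 35 after Sparc. The crosslinker of laminin and type IV collagen, Nid1, also did not pass (log2 fold change 0.32 ± 0.25, adjusted p = 0.563). Only Col15a1, a collagen that joins basement membranes to the fibres beside them, passed in this role. It had 370.1, 205, 203 and 389 normalised reads in shMdk tumours and 167, 82.6, 147 and 128 in shCtrl tumours, without overlap, and a log2 fold change of 1.13 ± 0.27 (limma, adjusted p = 0.0188). Its call was lost without shMdk tumour 1 (adjusted p = 0.0828), shMdk tumour 4 (0.0678) or shCtrl tumour 2.

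Type VI collagen forms beaded filaments from the products of Col6a1, Col6a2 and Col6a3, and all 3 genes rose without overlap. Col6a3 had 685, 408, 355 and 841 normalised reads in shMdk anti-PD1 tumours, against 167, 119, 191 and 97.1 in shCtrl anti-PD1 tumours. The lowest shMdk tumour was 1.86 times the highest shCtrl tumour, and the log2 fold change was 1.95 ± 0.44 (limma, adjusted p = 0.0120). Col6a1 had 157, 67.6, 64.4 and 161 normalised reads in shMdk tumours and 41.4, 16.5, 42.8 and 23.4 in shCtrl tumours, with a log2 fold change of 1.80 ± 0.46 (limma, adjusted p = 0.0262). That of Col6a2, its neighbour 85161 bases away on chromosome 10, was 1.68 ± 0.45 (limma, adjusted p = 0.0343). Col16a1, whose product binds to the surface of other fibrils, rose, with a log2 fold change of 1.05 ± 0.26 (limma, adjusted p = 0.0220). The calls of Col6a1, Col6a2 and Col16a1 were lost without shMdk anti-PD1 tumour 1 (adjusted p of 0.106, 0.142 and 0.0932), without tumour 4 of that group (0.0867, 0.0971 and 0.0656) and without shCtrl anti-PD1 tumour 2. That of Col6a2 was also lost without shMdk tumour 2 or shCtrl tumour 1, that of Col16a1 without shCtrl tumour 3, and those of Col6a1 and Col6a2 without shCtrl tumour 4. Col8a1, Col12a1 and Col14a1 did not pass.

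Lox, the founding lysyl oxidase, had the largest fold change of the 35. It had 472, 93, 32.2 and 184 normalised reads in shMdk anti-PD1 tumours, against 5.5, 1.5, 27 and 11.7 in shCtrl anti-PD1 tumours. The groups did not overlap, although shMdk tumour 3 and shCtrl tumour 3 lay close together, and the 4 shMdk tumours spanned a 14.7-fold range. The log2 fold change was 3.88 ± 0.76 (limma, adjusted p = 0.00468), and with each anti-PD1 tumour left out in turn it ran between 3.26 and 4.53. Loxl1, which crosslinks elastin and collagen, had 218, 56.8, 30.5 and 80.4 normalised reads in shMdk tumours and 15.6, 6, 24.2 and 16.2 in shCtrl tumours, without overlap (log2 fold change 2.33 ± 0.56, adjusted p = 0.0183). Without shMdk tumour 1 the adjusted p of Loxl1 was 0.0812, and its call was also lost without shCtrl tumour 2. Loxl2, which acts on type IV collagen, did not pass (log2 fold change 0.81 ± 0.36, adjusted p = 0.241).

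**Figure D2:**
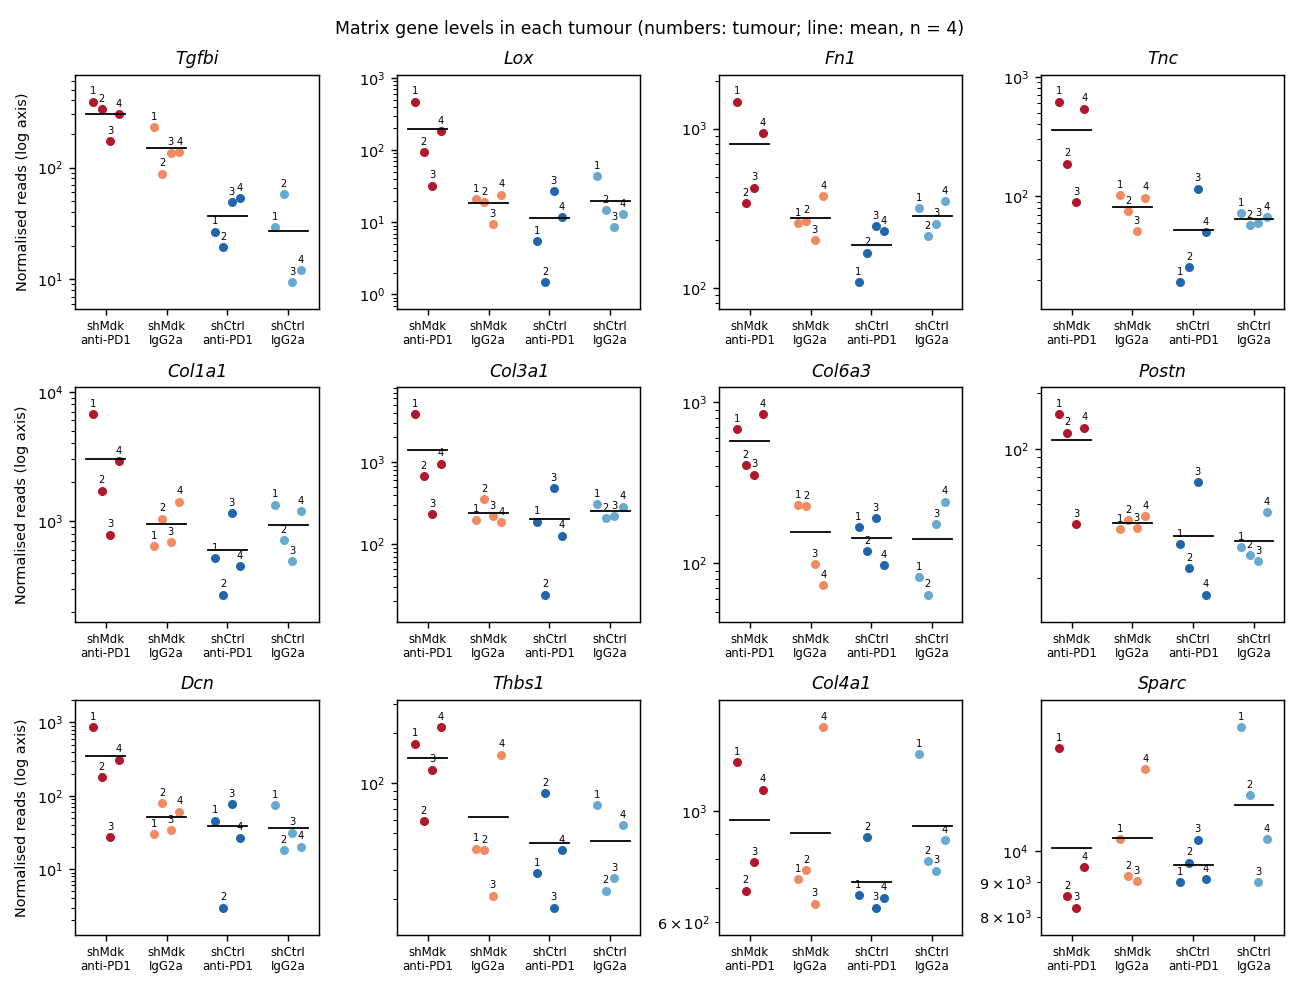
Normalised reads (vertical log axes) of 12 matrix genes in each of the 16 tumours, by group. Points carry the tumour number and lines are group means of 4 tumours. For Lox, Fn1, Col6a3 and Tgfbi all 4 shMdk anti-PD1 tumours lie above all 4 shCtrl anti-PD1 tumours, and for Sparc and Col4a1 the groups overlap.

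Fibronectin and the glycoproteins that cells bind through integrins made up most of the calls beside the collagens. Fn1, the gene of fibronectin, had 1479.5, 343, 427 and 937 normalised reads in shMdk anti-PD1 tumours, against 109, 167, 244 and 227 in shCtrl anti-PD1 tumours. All 4 shMdk tumours were above all 4 shCtrl tumours, and the log2 fold change was 1.91 ± 0.38 (limma, adjusted p = 0.00495). Tnc, the gene of tenascin C, had 622, 188, 89.8 and 543 normalised reads in shMdk tumours and 19.3, 25.5, 116 and 50.3 in shCtrl tumours. The groups overlapped through shMdk tumour 3 and shCtrl tumour 3, and the log2 fold change was 2.70 ± 0.55 (limma, adjusted p = 0.00633); without the 5 libraries whose levels rose with GC content, Tnc did not pass. Postn, the gene of periostin, had 154, 122, 39 and 130.3 normalised reads in shMdk tumours and 30.3, 22.5, 66 and 16.2 in shCtrl tumours. Tumour 3 of the shMdk group was again the low one and lay below shCtrl tumour 3 (log2 fold change 1.72 ± 0.42, adjusted p = 0.0193). The Postn call was lost without shMdk tumours 1 (limma, adjusted p = 0.0858), 2 or 4 (0.0618), or shCtrl tumour 4. It was also lost with the anti-PD1 groups alone in the fit.

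Tgfbi, a secreted protein that binds collagen and integrins and is named for its induction by TGF-beta, had the smallest p of the 35. It had 391, 337, 173 and 304 normalised reads in shMdk anti-PD1 tumours, against 26.7, 19.5, 49.3 and 53 in shCtrl anti-PD1 tumours. The lowest shMdk tumour was 3.26 times the highest shCtrl tumour, and the log2 fold change was 3.04 ± 0.48 (limma, adjusted p = 0.00120). Thbs1, the gene of thrombospondin 1, had 173, 58.8, 120.3 and 217 normalised reads in shMdk tumours and 28.5, 87.1, 17.7 and 39.5 in shCtrl tumours. Its groups overlapped and it did not pass (log2 fold change 1.78 ± 0.58, adjusted p = 0.0865). Thbs2 did not pass either (log2 fold change 2.04 ± 0.60, adjusted p = 0.0538). Sparc had 14171, 8586, 8250.2 and 9457 normalised reads in shMdk tumours, against 8989, 9611, 10393 and 9093 in shCtrl tumours, a log2 fold change of 0.05 ± 0.19 (limma, adjusted p = 0.932). Its groups overlapped, and only tumour 1 of the shMdk group lay above the shCtrl tumours.

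Of the elastic fibre genes, Fbn1, the gene of the microfibril protein fibrillin 1, passed. It had 317, 77.4, 30.5 and 101 normalised reads in shMdk anti-PD1 tumours, against 16.6, 3, 27 and 30.6 in shCtrl anti-PD1 tumours. The groups overlapped narrowly, shMdk tumour 3 lying just under shCtrl tumour 4, and the log2 fold change was 2.58 ± 0.66 (limma, adjusted p = 0.0250). Its call was lost without shMdk tumours 1 (limma, adjusted p = 0.107), 2 or 4 (0.0595), or shCtrl tumours 1 or 2. It was also lost with the anti-PD1 groups alone in the fit. The fibulin genes Fbln1 (log2 fold change 0.32 ± 0.20, adjusted p = 0.459) and Fbln2 (log2 fold change 1.95 ± 0.99, adjusted p = 0.319) did not pass. Fbln2 had 208, 34.3, 22 and 70.3 normalised reads in shMdk anti-PD1 tumours, against 2.8, 149, 13.9 and 5.4 in shCtrl anti-PD1 tumours, where tumour 2 stood far above the other 3. Without that tumour its log2 fold change was 3.05 and it passed. Dcn, the gene of decorin, a proteoglycan on collagen fibrils, had 859, 178, 27.1 and 311 normalised reads in shMdk tumours, against 46, 3, 77.2 and 27 in shCtrl tumours. Its 4 shMdk tumours spanned a 31.7-fold range, with tumour 3 below shCtrl tumours 1 and 3, and Dcn did not pass (log2 fold change 2.92 ± 0.91, adjusted p = 0.0704). Bgn, the gene of the related biglycan, did not pass (log2 fold change 1.77 ± 0.56, adjusted p = 0.0756). With edgeR on the recovered reads 19 of the 35 passed, all 16 of the above among them, and with DESeq2 27 passed. The shares of all genes that edgeR and DESeq2 called are not given here, so these counts have no background. With the anti-PD1 groups alone in the limma fit 12 of the 35 passed, 11 of the 16 among them.

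Promoter windows from RefSeq (GRCm38.p6), running from 250 bases before to 50 bases after a gene's start, were found for 24 of the 35 matrix genes, in 29 windows. The windows below are of genes that rose under anti-PD1 (Tgfbi, Tnc, Postn and Col3a1) and of Col4a1, which did not pass, so that the sequences of both kinds can be read side by side. Tnc and Postn have 2 windows each, and the one whose start site lies nearest the annotated start of the gene is shown. Each is written 5′ to 3′ on the gene's own strand, in lower case, and capitals mark a match on either strand to any of 5 motifs: the TATA box (TATAAA), the CCAAT box (CCAAT), the GC box (GGGCGG), the AP-1 site (TGANTCA, with N for any base) and the TEAD site (GGAATG).
Tgfbi (chr13:56609336-56609635, plus strand): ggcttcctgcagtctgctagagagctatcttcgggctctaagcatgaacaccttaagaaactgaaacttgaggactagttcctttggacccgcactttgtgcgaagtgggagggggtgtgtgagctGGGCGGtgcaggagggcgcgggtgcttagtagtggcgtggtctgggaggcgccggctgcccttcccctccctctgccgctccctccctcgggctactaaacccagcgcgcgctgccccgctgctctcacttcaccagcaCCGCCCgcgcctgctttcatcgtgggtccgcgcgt
Tnc (chr4:64046966-64047265, minus strand): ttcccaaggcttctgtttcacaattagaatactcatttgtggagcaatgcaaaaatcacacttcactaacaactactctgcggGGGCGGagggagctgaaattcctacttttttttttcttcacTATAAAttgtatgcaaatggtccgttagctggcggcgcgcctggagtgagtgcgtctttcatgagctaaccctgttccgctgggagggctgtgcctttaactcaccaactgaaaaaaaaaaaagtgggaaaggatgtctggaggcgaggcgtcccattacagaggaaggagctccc
Postn (chr3:54360857-54361156, plus strand): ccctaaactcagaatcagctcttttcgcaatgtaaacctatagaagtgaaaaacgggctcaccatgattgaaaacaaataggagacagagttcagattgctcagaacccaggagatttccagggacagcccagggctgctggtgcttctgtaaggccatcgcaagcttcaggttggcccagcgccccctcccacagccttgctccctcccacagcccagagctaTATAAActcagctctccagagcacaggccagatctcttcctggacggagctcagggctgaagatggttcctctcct
Col3a1 (chr1:45311288-45311587, plus strand): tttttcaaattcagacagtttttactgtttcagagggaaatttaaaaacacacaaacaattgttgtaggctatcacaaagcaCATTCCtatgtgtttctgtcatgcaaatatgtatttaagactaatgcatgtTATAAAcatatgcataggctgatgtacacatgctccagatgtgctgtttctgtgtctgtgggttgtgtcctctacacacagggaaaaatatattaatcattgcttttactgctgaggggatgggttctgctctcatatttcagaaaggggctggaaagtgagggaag
Col4a1 (chr8:11312777-11313076, minus strand): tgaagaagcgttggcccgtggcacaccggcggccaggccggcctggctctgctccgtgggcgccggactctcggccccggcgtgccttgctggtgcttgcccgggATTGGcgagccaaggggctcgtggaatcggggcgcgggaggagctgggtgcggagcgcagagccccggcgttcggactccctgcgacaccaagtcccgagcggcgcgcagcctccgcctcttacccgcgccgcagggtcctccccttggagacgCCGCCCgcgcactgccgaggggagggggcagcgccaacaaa

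Counted from the start site, the Postn window shown held a TATA box whose first base lies at -26, and the other Postn window held none and a CCAAT box at 25. The Tnc window shown held a TATA box at -126 and a GC box at -167. The other Tnc window overlaps it and places the same boxes at -205 and -246. The Col3a1 window held a TATA box at -117 and a TEAD motif at -168. The Tgfbi window held GC boxes at -124 and 16. The Col4a1 window, which overlaps that of Col4a2 on the other strand, held a CCAAT box at -145 and a GC box at 10. Over all 29 windows of matrix genes, 65.5% held a GC box, against 35.7% of all 32851 windows and 46.2% of those of protein-coding genes. The TATA box was in 17.2% of matrix windows and 13.6% of all windows, and the CCAAT box in 34.5% and 37.4%. The AP-1 motif was in 3.45% of matrix windows and 7.81% of all windows, and the TEAD motif in 13.8% and 14.7%. The motifs do not overlap one another in the windows shown, and a match is a description of the letters only.

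Under IgG2a, 1 of the 35 matrix genes rose in shMdk tumours relative to shCtrl tumours and 0 fell, where 1.63% of all genes tested were called higher and 0.109% lower. The gene was Tgfbi, with 230.3, 88.2, 137 and 139 normalised reads in shMdk IgG2a tumours, against 29.3, 57.5, 9.5 and 12 in shCtrl IgG2a tumours. All 4 shMdk tumours were above all 4 shCtrl tumours, the only such case among the 35 (4.16% of all genes tested), and the log2 fold change was 2.67 ± 0.48 (limma, adjusted p = 0.00614). It passed whichever of the 16 tumours was left out. The median log2 fold change of the matrix genes was 0.11, against -0.01 over all genes tested. Fbln1 was the other gene with an unadjusted limma p under 0.05 (log2 fold change 0.56 ± 0.20, adjusted p = 0.272).

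Lox, Fn1 and Col1a1 did not pass between the lines under IgG2a. Lox had 21.1, 19.1, 9.5 and 24.2 normalised reads in shMdk IgG2a tumours, against 43.9, 14.9, 8.6 and 12.9 in shCtrl IgG2a tumours, with a log2 fold change of 0.08 ± 0.76 (limma, adjusted p = 0.996). Fn1 had 256, 265, 199 and 376 in shMdk tumours with that antibody, against 317, 211, 254 and 353 in shCtrl ones (log2 fold change -0.06 ± 0.38, adjusted p = 0.991). Col1a1 had 638, 1047, 691 and 1415 in shMdk tumours with IgG2a, against 1342, 714, 494 and 1198 in shCtrl ones (log2 fold change 0.05 ± 0.53, adjusted p = 0.996). In each of these the groups overlapped, and the difference did not pass.

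Averaged over both antibodies, 10 of the 35 rose in shMdk tumours and 0 fell, where 6.23% of all genes tested were called higher and 2.17% lower. The median log2 fold change of the 35 was 0.11 under IgG2a and 1.74 under anti-PD1. Of the 10, only Tgfbi also passed under IgG2a alone, and it had the largest averaged change (log2 fold change 2.85 ± 0.34, limma adjusted p = 4.29e-05). The others were Lox (log2 fold change 1.98 ± 0.53, adjusted p = 0.0266), Fbn1 (log2 fold change 1.65 ± 0.46, adjusted p = 0.0339), Loxl1 (log2 fold change 1.31 ± 0.40, adjusted p = 0.0489), Tnc, Col5a2, Col6a3, Col6a2, Postn and Fn1, the last 5 with log2 fold changes between 0.92 and 1.14. The count hung on single tumours: it was 1 without shMdk anti-PD1 tumour 1, 2 without tumour 4 of that group or without shCtrl IgG2a tumour 2, 4 without shMdk IgG2a tumour 4, shCtrl anti-PD1 tumour 1 or shCtrl IgG2a tumour 3, 5 without shMdk IgG2a tumour 2 or shCtrl anti-PD1 tumours 2 or 4, and 6 without shMdk IgG2a tumours 1 or 3. Tgfbi passed in each of these fits.

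Within the lines, anti-PD1 was set against IgG2a. In shMdk tumours 0 of the 35 passed in limma, where 0.0341% of all genes tested did, and 33 of the 35 log2 fold changes lay above 0. Their median was 1.04, against 0.03 over all genes tested. An unadjusted limma p was under 0.05 for 21 of the 35 and for 1826 of all 14672 genes. With edgeR 0 of the 35 passed and with DESeq2 9 passed. The shares of all genes that these 2 methods called are not given here. In 4 of the 35, namely Col6a3, Lox, Col15a1 and Col5a2, the anti-PD1 tumours did not overlap the IgG2a tumours, all higher (4.42% of all genes tested were higher without overlap and 4.1% lower). Col6a3 had 685, 408, 355 and 841 normalised reads in shMdk anti-PD1 tumours, against 229, 227, 98.6 and 73.6 in shMdk IgG2a tumours, with a log2 fold change of 1.94 ± 0.44 (limma, adjusted p = 0.120). Lox had a log2 fold change of 2.79 ± 0.76 (limma, adjusted p = 0.201) and Fn1 one of 1.33 ± 0.38 (limma, adjusted p = 0.208). Tnc had 622, 188, 89.8 and 543 normalised reads in shMdk anti-PD1 tumours, against 102, 75.5, 51.2 and 97.8 in shMdk IgG2a tumours (log2 fold change 1.79 ± 0.55, adjusted p = 0.236). Tumour 3 of the anti-PD1 group was the one within the range of the IgG2a tumours.

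In shCtrl tumours 0 of the 35 passed in limma. An unadjusted limma p was under 0.05 for 0 of the 35, against 556 of all 14672 genes. With edgeR 0 of the 35 passed and with DESeq2 at most 1. The shares of all genes that edgeR and DESeq2 called in shCtrl tumours are not given here. Of all genes tested 0% passed in limma. Here 7 of the 35 log2 fold changes lay above 0, and their median was -0.37, against 0.01 over all genes tested. Col16a1 had 301, 201, 255 and 305 normalised reads in shCtrl anti-PD1 tumours, against 388, 372, 366 and 406 in shCtrl IgG2a tumours. It was the one gene whose groups did not overlap, lower under anti-PD1 (0.981% of all genes tested were higher without overlap and 1.13% lower), and did not pass (log2 fold change -0.55 ± 0.26, adjusted p = 0.798). Lox had 5.5, 1.5, 27 and 11.7 normalised reads in shCtrl anti-PD1 tumours and 43.9, 14.9, 8.6 and 12.9 in shCtrl IgG2a tumours, with overlap (log2 fold change -1.01 ± 0.76, adjusted p = 0.798). The next smallest p were those of Col18a1 (log2 fold change -0.57 ± 0.29, adjusted p = 0.798) and Fn1 (log2 fold change -0.64 ± 0.38, adjusted p = 0.798).

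Whether anti-PD1 acted differently in the 2 lines was tested directly, as the effect in shMdk tumours minus that in shCtrl tumours. Of the 35 matrix genes 0 passed in limma, as did 0% of all genes tested, and 0 passed in edgeR and in DESeq2. An unadjusted p was under 0.05 for 17 of the 35 in limma and for 506 of all 14672 genes. In DESeq2 it was under 0.05 for 23 of the 35, and the count over all genes is not given here. The median difference was 1.41 log2 units over the matrix genes, 34 of the 35 were above 0, and over all genes tested the median was 0.01. The smallest p was that of Fn1, whose effects differed by 1.97 ± 0.53 (limma, adjusted p = 0.9998), followed by Lox (log2 difference 3.81 ± 1.07, adjusted p = 0.9998). For Tgfbi the difference was 0.37 ± 0.67 (limma, adjusted p = 0.9998). The comparisons share groups of tumours, so their counts are not separate lines of evidence.

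**Figure D3:**
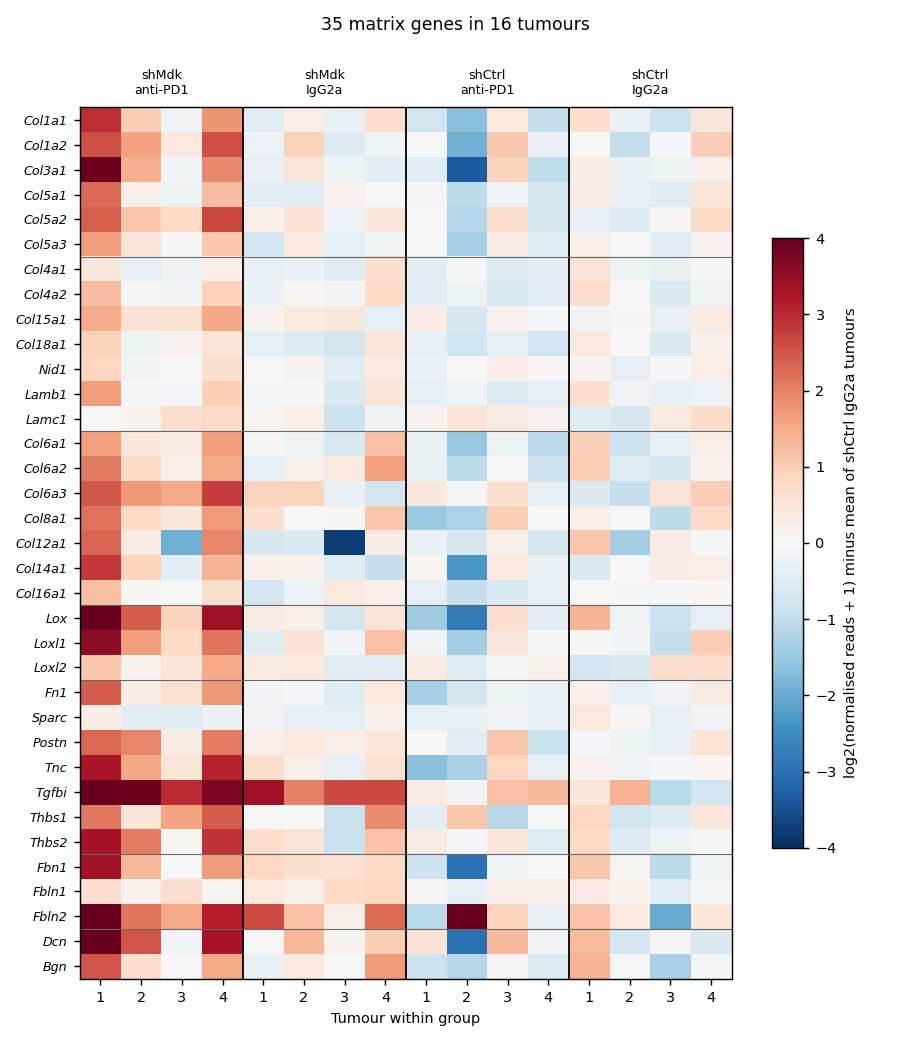
Log2(normalised reads + 1) of the 35 matrix genes (rows, grouped by role) in the 16 tumours (columns), each minus the gene's mean over the 4 shCtrl IgG2a tumours. Red is above and blue below that mean, and the colours saturate at 4 log2 units. Tumours 1 and 4 of the shMdk anti-PD1 group are red in most rows, tumour 3 is close to white, and Tgfbi is red in all 8 shMdk tumours.

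Within the shMdk anti-PD1 group the matrix genes ranked the tumours in much the same order. Tumours 1 and 4 held the 2 highest of the 4 values for 32 of the 35, and tumour 3 the lowest for 27. Of all 16 tumours, shMdk anti-PD1 tumour 1 was the highest for 25 and tumour 4 for 7. The group mean was highest in shMdk anti-PD1 tumours for 33 and lowest in shCtrl anti-PD1 tumours for 24. The exceptions at the top were Sparc, highest in shCtrl IgG2a tumours, and Fbln1, highest in shMdk IgG2a tumours. In the shCtrl anti-PD1 group tumour 2, one of the libraries high in Gm42418, held the lowest of all 16 values for 16 genes. Summed over the 6 fibrillar chains, shMdk anti-PD1 tumours held 13696, 3789, 1761 and 6607 normalised reads, against 1334, 524, 2654 and 1039 in shCtrl anti-PD1 tumours. Tumour 3 of the shMdk group lay within the shCtrl range on this measure, and tumour 1 was far above the rest. The slope of relative gene level on GC content was 0.11 log2 units per 10% in tumour 1 and -0.0965 in tumour 4, the 2 tumours with most matrix RNA. Its part in the results was tested only by leaving libraries out. Among IgG2a tumours, 4 of the 35 were lower in both lines in the libraries with a positive slope (13.3% of all genes tested) and 1 was higher (13.3%).

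Genes that make and receive the matrix were read against the same background of 4.93% of all genes called higher and 0.995% lower. Under anti-PD1, 2 of 23 genes for the folding, modification and trimming of collagen rose in shMdk relative to shCtrl tumours and 0 fell. They were Adamts2 (log2 fold change 1.47 ± 0.38, adjusted p = 0.0264) and Adamts14 (log2 fold change 1.59 ± 0.41, adjusted p = 0.0286), proteases that remove the amino-terminal propeptide of procollagen. The median log2 fold change of these 23 genes was 0.33, and Serpinh1, the gene of the collagen chaperone HSP47, did not pass (log2 fold change -0.16 ± 0.42, adjusted p = 0.904). Of 42 further matrix genes tested, 4 rose and 1 fell, with a median of 0.49. Those that rose were Ecm1 (log2 fold change 2.11 ± 0.40, adjusted p = 0.00405), the proteoglycan gene Vcan (log2 fold change 2.17 ± 0.48, adjusted p = 0.0112), the microfibril gene Mfap5 (log2 fold change 2.73 ± 0.63, adjusted p = 0.0149) and Emilin2 (log2 fold change 0.95 ± 0.22, adjusted p = 0.0161). Vcan had 117, 47, 18.6 and 54.2 normalised reads in shMdk anti-PD1 tumours, against 7.4, 12, 7.4 and 15.3 in shCtrl anti-PD1 tumours, with tumours 1 and 4 again the highest. The one that fell was Col9a1, a chain of the cartilage collagen type IX, with 0, 1, 0.8 and 0 normalised reads in shMdk tumours and 4.6, 4.5, 4.6 and 24.3 in shCtrl tumours (log2 fold change -2.56 ± 0.69, adjusted p = 0.0341). At these levels Col9a1 reached the mean of 5 normalised reads needed for testing only through groups other than shMdk anti-PD1. Nothing is drawn from its call.

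Of 22 matrix receptor genes, 5 rose and 0 fell. The 4 with the smallest p were Sdc3, the gene of the cell-surface proteoglycan syndecan 3 (log2 fold change 1.61 ± 0.20, adjusted p = 0.000273), and the integrin chains Itgb5 (log2 fold change 1.99 ± 0.29, adjusted p = 0.000947), Itga2 (log2 fold change 1.34 ± 0.29, adjusted p = 0.00948) and Itgb3 (log2 fold change 1.15 ± 0.31, adjusted p = 0.0346). Sdc3 had 337, 395, 331 and 345 normalised reads in shMdk anti-PD1 tumours, against 106, 144, 97.6 and 116 in shCtrl anti-PD1 tumours. The groups did not overlap, and the 4 shMdk tumours lay close together. Sdc3 also passed between shMdk anti-PD1 and shMdk IgG2a tumours, as no matrix gene did, with 188, 137, 122 and 104 normalised reads in the IgG2a tumours (log2 fold change 1.38 ± 0.20, adjusted p = 0.0152). Under IgG2a, Sdc3 rose in shMdk relative to shCtrl tumours (log2 fold change 1.19 ± 0.20, adjusted p = 0.00428), and Fbln5, the gene of an elastin-binding fibulin, fell (log2 fold change -0.85 ± 0.20, adjusted p = 0.0373).

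Markers of other cell types were read in the same comparison. Of the 14 listed fibroblast markers, 8 had a row, and their summed level was 475 to 2047 normalised reads in shMdk anti-PD1 tumours, against 324 to 475 in shCtrl anti-PD1 tumours. The highest was shMdk tumour 1. Of the 7 tested 1 rose, Mfap5, which is also counted among the 42 further matrix genes. All 7 log2 fold changes lay above 0, with a median of 1.20. An unadjusted limma p was under 0.05 for 4 of the 7, against 2617 of all 14672 genes. The pericyte and smooth muscle markers, with 10 of 11 in the table, summed to 760 to 1393 in shMdk tumours and 713 to 920 in shCtrl tumours, and 0 of 10 rose. The endothelial markers, with 9 of 10 in the table, summed to 779 to 2014 in shMdk tumours and 533 to 856 in shCtrl tumours, and 3 of 9 rose.

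The macrophage markers, with 10 of 10 in the table, summed to 3924 to 8973 in shMdk anti-PD1 tumours, against 591 to 2002 in shCtrl anti-PD1 tumours, and 9 of 10 rose. They also stood apart under IgG2a, at 1851 to 4463 in shMdk tumours and 641 to 1534 in shCtrl tumours, where Tgfbi was the one matrix gene to pass. Among shMdk anti-PD1 tumours the macrophage sum was highest in tumours 1 and 2. The sums of the fibroblast, the pericyte and smooth muscle, and the endothelial markers were highest in tumours 1 and 4, as that of the fibrillar collagens was. The pan-leukocyte markers summed to 1853 to 3275 in shMdk anti-PD1 tumours and 225 to 749 in shCtrl anti-PD1 tumours, and 6 of 7 rose. They too stood apart under IgG2a, at 850 to 1880 in shMdk tumours and 262 to 477 in shCtrl tumours. With that antibody 5 of 7 pan-leukocyte and 3 of 10 macrophage markers rose, where 1.63% of all genes tested were called higher. Of 8 melanocyte markers 0 rose and 0 fell. Of 8 keratinocyte markers only Dsp had a row, and it rose (log2 fold change 2.52 ± 0.59, adjusted p = 0.0154). Dsp was low, with 25, 97, 13 and 23 normalised reads in shMdk anti-PD1 tumours, against 6, 9, 1 and 4 in shCtrl anti-PD1 tumours. Of the skeletal muscle and adipocyte markers 3 of 7 and 2 of 5 had a row, and 0 passed. In none of these lists was a gene with a row at 0 in all 16 tumours. The part of these cell types in the matrix results was not tested.

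**Figure D4:**
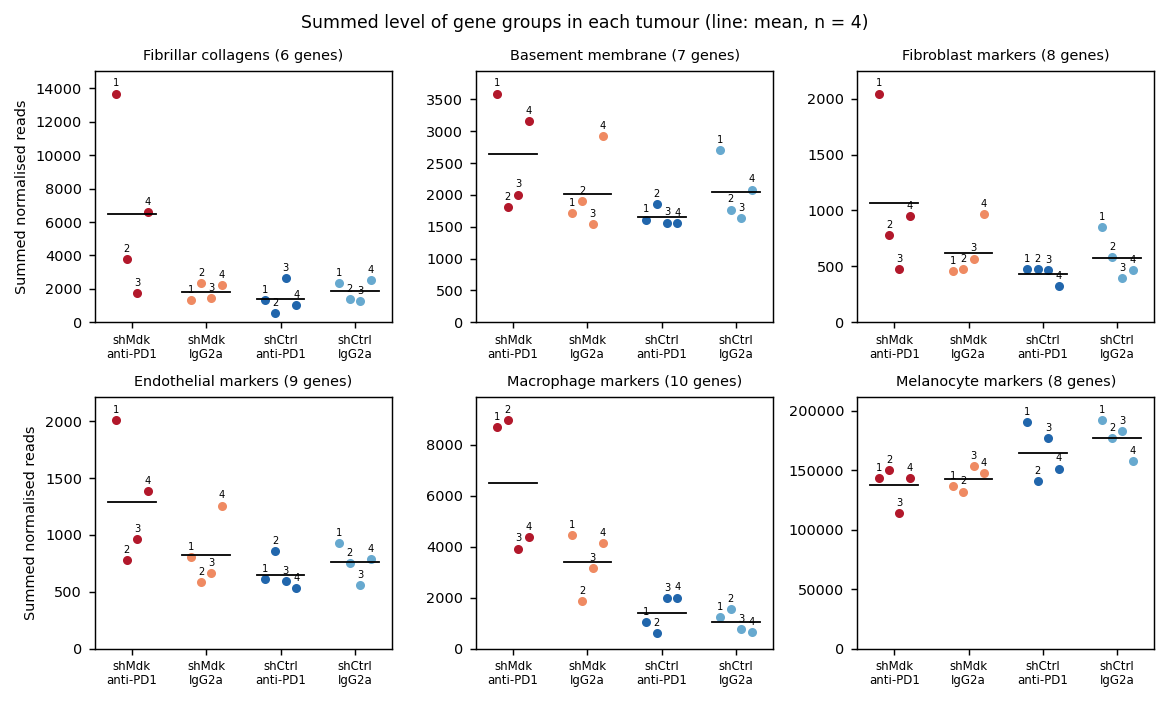
Summed normalised reads of 2 groups of matrix genes and 4 lists of cell type markers in each tumour (vertical axes from 0). Points carry the tumour number and lines are means of 4 tumours. Fibrillar collagens and fibroblast markers are highest in shMdk anti-PD1 tumour 1 at 13696 and 2047, while macrophage markers are above all shCtrl tumours in each shMdk tumour given the same antibody.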

How the data were processed

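Stranded libraries of transcript 3′ ends, primed with oligo(dT) on 500 ng of total RNA from each of 16 tumours, were sequenced on an Illumina NextSeq, per the labels' protocols. RNA integrity numbers averaged 8.6, with a range of 5.8 to 9.2. The submitters' processing notes name TopHat2 2.0.10 and HTSeq, besides Bowtie 1.0.0, FastQC 0.11.0, DESeq2 and SAMtools 0.1.19; the build was GRCm38 (mm10). The deposited values are a normalised signal for each gene in each tumour: read counts that the authors divided by size factors. Dividing by the worth of a single read gave back whole reads for 100% of values (tolerance 0.001). DESeq2 size factors computed on these reads matched those of the table to 1e-06 in all 16 tumours.

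Genes averaging at least 5 normalised reads were kept (14672). Groups were compared with limma 3.58.1 (R 4.3.3) and trended variances on log2(value + 1), which understates changes of low genes, with all 16 tumours in 1 fit (12 residual degrees of freedom) and Benjamini-Hochberg adjustment within each of 6 comparisons. edgeR 4.0.16 and DESeq2 1.42.0 on the recovered reads, other pseudocounts and filters, and fits that left out tumours were alternatives. Counting used strand, per the labels' protocols. Groups came from the labels. The labels describe separate tumours, so p-values are set against the spread between tumours, and reads without molecular identifiers are not independent molecules. The limma fit was tested on simulated data first. There all groups were given the same relative spread, so groups of unequal spread were not covered.

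The matrix genes, the pathway and marker lists and the rule for named genes were chosen with earlier results of these data known. Named matrix genes were a fixed set from each role, plus, per comparison, up to 12 with the smallest p among those that passed or 4 where none did. Col6a2, Col1a2, Col4a2, Loxl2, Lamb1, Fbln1, Fbln2, Bgn, Nid1, Thbs2, Col5a1 and Col5a3 were added to complete their roles, as was Col18a1 under anti-PD1. Of each other list up to 4 that passed were named; Serpinh1, Dsp and Col9a1 under anti-PD1 were picked after their values were seen. Sequences are RefSeq promoter windows of GRCm38.p6, and gene positions are from the GENCODE annotation of GRCm38.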

Additional observations from a re-analysis of the deposited data

Results flagged for a closer look

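In 84 groups of 4 tumours (21 named matrix genes in 4 groups), the gap between the most extreme tumour and its nearest neighbour was divided by the range of the group and set against Dixon's critical value. It was exceeded 3 times, and about 1 group in 20 would pass by chance. Col4a1 in shMdk IgG2a tumours had a ratio of 0.866, from tumour 4 at 1468.6 normalised reads. Thbs1 in the same group had a ratio of 0.849, from the same tumour at 148 normalised reads. Col4a1 in shCtrl anti-PD1 tumours had a ratio of 0.845, from tumour 2 at 886 normalised reads. The first tumour is among the libraries with a positive GC slope and the second among those high in Gm42418.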

How the results depend on the processing

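Under anti-PD1, 16 of 35 matrix genes rose in shMdk relative to shCtrl tumours. The count was 27 with DESeq2, 10 without the libraries high in Gm42418, 7 without those with a positive GC slope, and 5 to 24 with 1 tumour left out. Averaged over both antibodies it was 10, and 16, 3 and 2 in the same 3 fits, with 1 to 15 when 1 tumour was left out. In shMdk tumours 0 passed between anti-PD1 and IgG2a, and DESeq2 called 9. The shares of all genes that DESeq2 called are not given here. Leaving out libraries also leaves fewer tumours, and the causes of the other moves were not tested. edgeR, other pseudocounts (0.5 and 5), other filters (none, or a mean of at least 20), the groups compared alone and scaling to total reads kept each count within 1.5 times, as did the 16 fits with 1 tumour left out for the other 4 comparisons. With the anti-PD1 groups alone in the limma fit, 12 of the 35 passed between the lines under anti-PD1. Col1a1, Col1a2, Col3a1, Postn and Fbn1 lost the call there (limma, adjusted p of 0.0516 to 0.101), and Bgn gained one. Fits without the libraries high in Gm42418 or with a positive GC slope, and scaling to total reads, were chosen after seeing the data. Over 3820 values of named genes, 3593 kept their side of the threshold, among them 91 that passed in neither fit and changed sign, 205 lost the call, 22 gained one and no called value changed sign. Scaling to total reads moved the median of all genes by up to 0.083 log2 units. At a mean of at least 20, Col12a1 and Thbs2 were not tested. No paired analysis was possible because tumour numbers were given in accession order.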
